A study of Homo sapiens with 6 samples.

Results

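Polyamine metabolism was followed through 9 genes of the deposited expression table, taken by gene name: ODC1, AMD1, SRM, SMS, SAT1, SMOX, OAZ1, OAZ2 and AZIN1. They are 9 of the 58735 genes in the table. Cells of A375, a BRAF-mutant line grown from a human melanoma, were given CuB or the solvent DMSO for 6 h, with 3 libraries in each group. CuB stands for cucurbitacin B in the series title, a plant triterpenoid. The dose of CuB is 0.2 µM in the protocol and 100 nM in the library names, so it is uncertain. All libraries came from 1 cell line, and no label calls the replicates separate cultures, so p-values cover the spread between libraries, which may be technical. Levels are in FPKM, in which fragments are divided by the length of the gene and a size of the library. That size was 0.914 to 0.9265 of the fragment total, as recovered from the values, with CuB and 1.033 to 1.036 with DMSO. Fold changes of CuB over DMSO were thus higher as deposited than at equal fragment totals, for ODC1 1.26 against 1.10 on the log2 scale.

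Putrescine, spermidine and spermine are small cations that bind RNA and other anions and that growing cells must make or import. ODC1, ornithine decarboxylase, makes putrescine, AMD1 makes the aminopropyl donor from S-adenosylmethionine, and the synthases SRM and SMS add aminopropyl groups to give spermidine and then spermine. SAT1 acetylates spermidine and spermine for export or oxidation, and SMOX oxidises spermine back to spermidine, with hydrogen peroxide as a by-product. Antizymes, encoded by OAZ1 and OAZ2, bind ODC1 protein and send it to the proteasome, and AZIN1, a catalytically inactive relative of ODC1, binds antizyme in its place.

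Antizyme is made only when the ribosome shifts frame at a stop codon inside the coding region, a step that polyamines promote. The sites of both antizyme genes are shown because mRNA levels of these genes do not measure that step. They were read from GENCODE 29 transcripts that keep the stop codon, here in capitals, with 30 bases on each side.
OAZ1: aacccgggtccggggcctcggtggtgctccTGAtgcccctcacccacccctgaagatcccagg
OAZ2: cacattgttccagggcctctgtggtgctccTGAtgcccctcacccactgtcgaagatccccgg
The stop codon is codon 69 of OAZ1 and codon 33 of OAZ2. Of the 63 bases 51 (80.95%) were identical, including an unbroken run of 27 that spans the stop. The annotated coding transcripts of both genes leave out 1 base at this place so that the reading frame continues.

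With CuB the mRNA of the first enzyme of synthesis and of the spermine oxidase rose most among the 9. SMOX rose 3.24-fold, to 26.5 ± 2.72 FPKM with CuB, against 8.19 ± 2.01 FPKM with DMSO (SD, n = 3 per group here and below). ODC1 rose 2.48-fold, to 43.1 ± 2.24 FPKM with CuB, against 17.4 ± 0.91 FPKM with DMSO. OAZ1, SMS and AZIN1 also rose, by 1.52-fold, 1.45-fold and 1.43-fold. AMD1, SRM, SAT1 and OAZ2 did not pass the test. In all, 5 of the 9 genes rose and 0 fell at a limma adjusted p under 0.05, the threshold used throughout. Of the 13273 genes tested 38.6% passed it, 22.9% as higher and 15.6% as lower with CuB. With voom on the recovered fragments, AMD1 fell, and in the limma fit it was the 1 gene of the 9 below 0 with an unadjusted p under 0.05 (0.0216). A rise of at least 2-fold was found for ODC1 and SMOX, and for 4.87% of all genes tested. The median log2 fold change of the 9 was 0.51, beside 0.05 for all genes tested. All 9 passed the filter on low values, a mean of at least 1 FPKM.

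**Figure D1:**
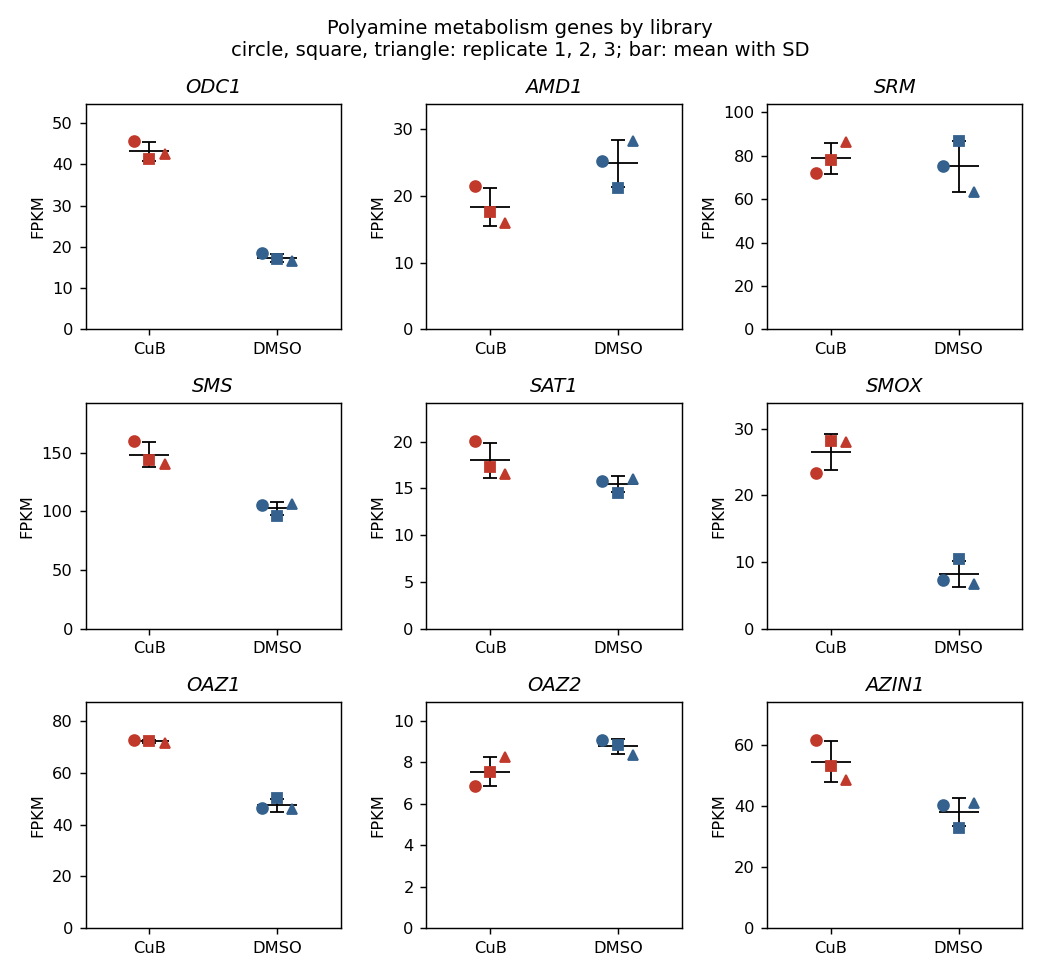
FPKM of each of the 9 genes (vertical axis, from 0) in the 3 CuB libraries, in red, and the 3 DMSO libraries, in blue, with the mean and SD in black. CuB points lie above all DMSO points for ODC1, SMS, SAT1, SMOX, OAZ1 and AZIN1 and below them for OAZ2, while AMD1 and SRM overlap.

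The depth was 15502971 to 16137093 fragments per library with CuB and 14845976 to 15797757 with DMSO, and each of the 9 genes had between 311 and 5632 fragments in every library. The labelled cell type was checked against melanocyte lineage genes. SOX10 was at 217.9 ± 31.1 FPKM with CuB and 197.8 ± 50.4 FPKM with DMSO, while the pigment genes MLANA, PMEL, TYR, TYRP1 and DCT averaged under 1 FPKM in both groups. Of the 12 genes of this list 7 could be tested, of which 1 rose, 2 fell and 4, SOX10 among them, did not pass. Of all genes tested 22.9% rose and 15.6% fell. S100B fell by 1.84 on the log2 scale (limma adjusted p = 1.27e-05), to 6.64 ± 0.161 FPKM with CuB, against 26.4 ± 1.61 FPKM with DMSO. PRAME fell by 0.85 (adjusted p = 0.000939), and MCAM rose by 0.70 (adjusted p = 0.00263). Summed levels of the 12 genes were 633.5 to 682.1 FPKM with CuB and 594.2 to 706.9 FPKM with DMSO. VIM, at 271.8 ± 24.4 FPKM with CuB and 233.7 ± 19.6 FPKM with DMSO, and SOX10 were the largest parts of this sum. Summed levels of 5 leukocyte markers were 0.552 to 1.14 FPKM with CuB and 1.64 to 1.82 FPKM with DMSO, and those of 4 endothelial markers were 1.09 to 1.29 FPKM with CuB and 0.905 to 1.15 FPKM with DMSO. The sum of 5 epithelial markers was 76.6 to 77.6 FPKM with CuB and 42.6 to 47.6 FPKM with DMSO. KRT18 made up nearly all of it, and EPCAM and CDH1 were at or near 0. Mitochondrial genes held 2.25% to 2.70% of fragments with CuB and 3.25% to 3.91% with DMSO. The part of these differences in the results was not tested. Bulk values cannot tell fewer cells of a type from less RNA per cell.

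Libraries within a group differed along the GC content of transcripts. The correlation, across 13265 genes, of a library's deviation from its group mean with GC content was 0.71 for DMSO replicate 2 and 0.51 for CuB replicate 3. It was -0.57 for DMSO replicate 3 and -0.53 for CuB replicate 1. This bears on single values here, since the longest transcript had a GC content of 61.0% for SMOX and 63.7% for SRM but 37.7% for AMD1 and 42.3% for AZIN1. Each gene was therefore also tested after a GC correction. With that correction 7608 of the 13273 genes tested passed, against 5118 without it, so a pass there is more common among all genes.

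ODC1, the enzyme that commits ornithine to putrescine, lies on chromosome 2 from 10439968 to 10448504 on the minus strand (GRCh38, as are all positions below; ENSG00000115758). It was at 45.6, 41.2 and 42.5 FPKM in CuB replicates 1 to 3, against 18.4, 17.0 and 16.7 FPKM in DMSO replicates 1 to 3. All CuB values lay far above every DMSO value, and the groups did not overlap. The log2 fold change was 1.26 (SE 0.08, limma adjusted p = 6.01e-05), and it ranked 426 of 13273 from the highest. It passed under all 20 other settings tried, at log2 fold changes from 1.06 to 1.31.

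AMD1, S-adenosylmethionine decarboxylase, lies on chromosome 6 from 110874770 to 110895713 (ENSG00000123505). It was at 21.5, 17.6 and 16.0 FPKM with CuB and at 25.3, 21.1 and 28.2 FPKM with DMSO. CuB replicate 1 lay above DMSO replicate 2, so the groups overlapped by those libraries. The log2 fold change was -0.42 (SE 0.14, 95% interval -0.76 to -0.08), with a limma adjusted p of 0.0546. It fell past the threshold after the GC correction (adjusted p = 0.000342), with voom (0.0317), without CuB replicate 1 (0.0308) and without DMSO replicate 2 (0.0207). Over all 20 settings the adjusted p ran from 0.000342 to 0.155 and the fold change stayed below 0.

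**Figure D2:**
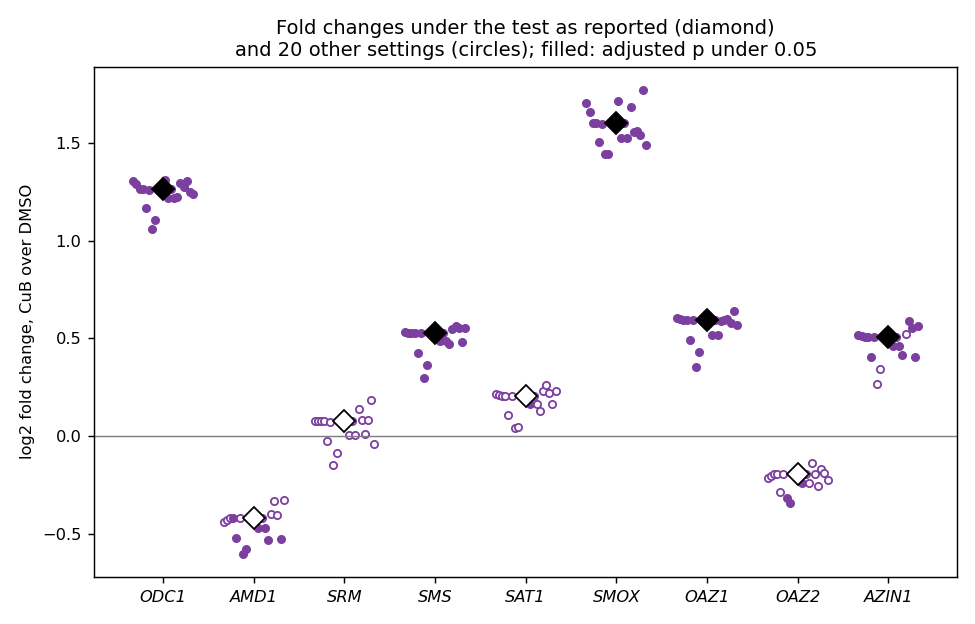
Log2 fold change of CuB over DMSO (vertical axis) for each gene as reported (black diamond) and under 20 other settings (circles). Filled symbols have an adjusted p under 0.05. ODC1, SMS, SMOX and OAZ1 are filled throughout, AMD1 and OAZ2 lie below 0 throughout, and SRM falls on both sides of 0.

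Of the synthases, SMS rose and SRM did not pass. SMS, spermine synthase, lies on chromosome X from 21940573 to 21994835 (ENSG00000102172). It was at 160.5, 144.3 and 140.5 FPKM with CuB, against 105.8, 95.8 and 106.1 FPKM with DMSO, with no overlap. It rose by 0.53 on the log2 scale (SE 0.08, limma adjusted p = 0.00283) and passed under all 20 other settings, at 0.30 to 0.57. The lowest value was that of quantile normalization (adjusted p = 0.0451). SRM, spermidine synthase, lies on chromosome 1 from 11054584 to 11060024 on the minus strand (ENSG00000116649). It was at 72.0, 78.1 and 86.4 FPKM with CuB and at 75.1, 86.7 and 63.4 FPKM with DMSO. The highest SRM value was in DMSO replicate 2 and the lowest in DMSO replicate 3. Its log2 fold change was 0.08 (95% interval -0.23 to 0.38, limma adjusted p = 0.666). The sign turned to -0.025 in TPM, -0.15 by quantile normalization, -0.087 at equal fragment totals and -0.037 without DMSO replicate 3.

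SMOX, which lies on chromosome 20 from 4120980 to 4187747 (ENSG00000088826), was at 23.4, 28.2 and 28.0 FPKM with CuB, against 7.32, 10.5 and 6.76 FPKM with DMSO. DMSO replicate 2 was the highest of the DMSO libraries and still far below the lowest CuB value. The log2 fold change was 1.60 (SE 0.16, limma adjusted p = 0.000472), rank 252 of 13273 from the highest, and 1.52 after the GC correction (adjusted p = 1.78e-06). It passed under all 20 other settings. SAT1, on chromosome X from 23783173 to 23786226 (ENSG00000130066), was at 20.1, 17.3 and 16.6 FPKM with CuB and at 15.8, 14.5 and 16.0 FPKM with DMSO. The SAT1 groups did not overlap, but the lowest CuB and the highest DMSO value were close. Its log2 fold change was 0.21 (95% interval -0.02 to 0.44, limma adjusted p = 0.137), and it passed only after the GC correction (log2 fold change 0.16, adjusted p = 0.0233) among the 20 settings, over which it ran from 0.04 (quantile normalization) to 0.26. SAT1 has an unproductive splice form, which gene-level values do not separate from the coding one. The ratio of SMOX to SAT1 in FPKM was 1.16 to 1.69 in the CuB libraries and 0.422 to 0.725 in the DMSO libraries.

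Of the antizyme genes, OAZ1 rose and OAZ2 did not pass. OAZ1, on chromosome 19 from 2269509 to 2273490 (ENSG00000104904), was at 72.8, 72.3 and 71.5 FPKM with CuB, against 46.2, 50.4 and 45.8 FPKM with DMSO. The CuB libraries were close to each other and lay well above the DMSO range. OAZ1 rose by 0.60 on the log2 scale (SE 0.07, limma adjusted p = 0.000966) and passed under all 20 other settings, at 0.36 (quantile normalization, adjusted p = 0.00755) to 0.64. OAZ2, on chromosome 15 from 64687573 to 64703281 on the minus strand (ENSG00000180304), was at 6.86, 7.54 and 8.27 FPKM with CuB and at 9.09, 8.84 and 8.38 FPKM with DMSO. The groups did not overlap, by a narrow margin, with the CuB libraries below. Its log2 fold change was -0.19 (95% interval -0.41 to 0.02, limma adjusted p = 0.134). It passed as lower by quantile normalization (adjusted p = 0.035), at equal fragment totals (0.0257) and after the GC correction (0.0293), and not in the other 17 settings. The ratio of OAZ1 to OAZ2 was 9.62 ± 0.975 with CuB and 5.42 ± 0.313 with DMSO.

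AZIN1, the antizyme inhibitor, lies on chromosome 8 from 102826357 to 102893864 on the minus strand (ENSG00000155096). It was at 61.9, 53.3 and 48.7 FPKM with CuB, against 40.5, 32.8 and 41.0 FPKM with DMSO. The lowest CuB library was above the highest DMSO library. AZIN1 rose by 0.51 on the log2 scale (SE 0.12, limma adjusted p = 0.0176). The call was lost by quantile normalization (log2 fold change 0.27, adjusted p = 0.177), at equal fragment totals (0.35, adjusted p = 0.0593) and without CuB replicate 2 (0.52, adjusted p = 0.0568), and it held after the GC correction (0.46, adjusted p = 0.000596).

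Ratios within a library set the enzyme beside its regulators. The ratio of ODC1 to OAZ1 in FPKM was 0.626, 0.57 and 0.594 in the CuB libraries and 0.398, 0.337 and 0.364 in the DMSO libraries. These ranges did not overlap. The ratio of AZIN1 to OAZ1 was 0.85, 0.738 and 0.681 with CuB and 0.875, 0.651 and 0.895 with DMSO, and these overlapped. The ratio of ODC1 to AMD1 was 2.37 ± 0.271 with CuB and 0.708 ± 0.108 with DMSO. These ratios are descriptions and carry no test, and they cover mRNA only, while ODC1, AMD1 and antizyme are also controlled in translation and protein breakdown. Groups without overlap were found for 7 of the 9 genes, 6 with CuB above and 1 with CuB below, and for 51.5% of all genes tested, 29.8% with CuB above and 21.7% with CuB below.

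**Figure D3:**
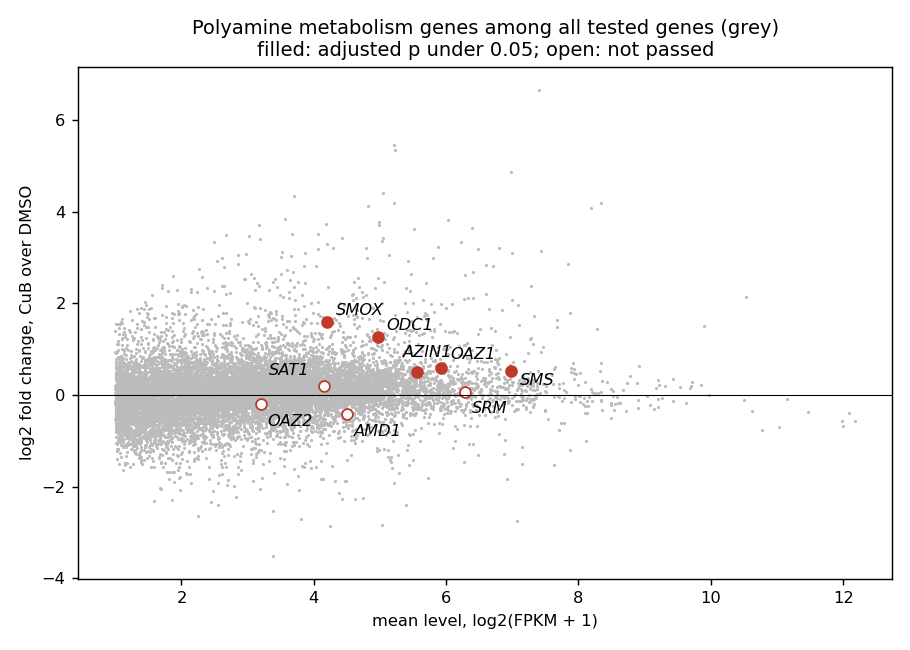
Log2 fold change of CuB over DMSO (vertical axis) against mean level as log2(FPKM + 1) for all 13273 genes tested (grey) and the 9 polyamine genes (red, filled where the adjusted p is under 0.05). SMOX and ODC1 stand above most genes of like level, and SRM and OAZ2 lie near 0.

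The order of levels depended on the gene length used. The length in the table equals the union of all annotated exons for all 58735 genes, which for OAZ1 is 3436 bases against 1148 bases of its principal transcript. By the table's length SMS was the highest and OAZ2 the lowest of the 9 with CuB, and SMS the highest and SMOX the lowest with DMSO. SRM and OAZ1 followed SMS in both groups, and with CuB the ranges of SRM and OAZ1 overlapped, as did those of AMD1 and SAT1. With DMSO the ranges of OAZ2 and SMOX overlapped at the lower end. Per principal transcript, a length chosen after the values were seen, OAZ1 came first at 216.1 ± 1.88 FPKM with CuB and 142.1 ± 7.64 FPKM with DMSO. SMS followed OAZ1, at 174.5 ± 12.5 FPKM with CuB and 120.6 ± 6.91 FPKM with DMSO, where its range overlapped that of SRM. With CuB the ranges of ODC1 and SAT1, of SAT1 and AMD1, of AMD1 and SMOX and of SMOX and OAZ2 overlapped on this scale. With DMSO those of AZIN1 and AMD1 and of SAT1 and OAZ2 did too. Of several principal transcripts the longest was used, for ODC1 2653 bases and not 1943, for AZIN1 4721 and not 2857. The shorter lengths would raise both genes, so their overlaps, and the rank of AZIN1 with CuB, depend on this choice. ODC1 took rank 5 of the 9 with CuB and rank 8 with DMSO. The choice of length does not touch the fold change of a gene.

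**Figure D4:**
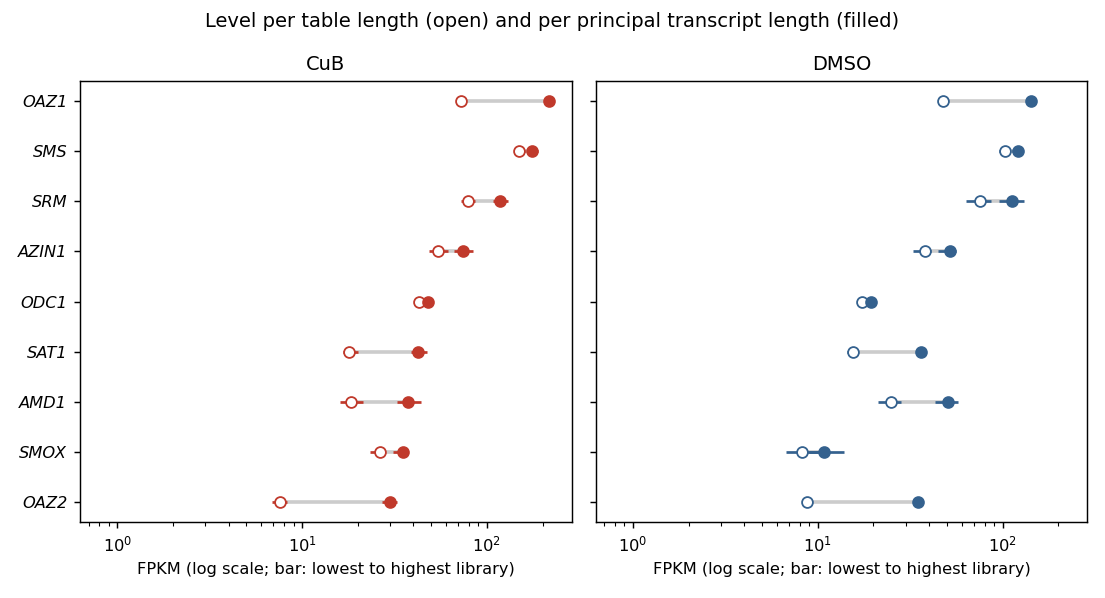
Level of each gene in FPKM on a log axis, per length in the deposited table (open) and per length of the principal transcript (filled), with CuB on the left and DMSO on the right; bars run from the lowest to the highest library and grey lines join both lengths. OAZ1 moves from rank 3 to rank 1 in both groups, and OAZ2 shifts by 3.97 times, the ratio of its lengths.

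Overlapping genes and gene copies were at low levels. The library kit does not mark strand, and OAZ1 shares 236 exon bases with JSRP1 on the opposite strand, which was at 0 to 0.171 FPKM. AZIN1 shares 344 exon bases with AZIN1-AS1, at 0.027 to 0.11 FPKM. Of 6 processed pseudogenes named after AMD1 or SRM, 4 were at 0 in every library, and AMD1P3 reached 0.614 FPKM and SRMP2 0.22 FPKM.

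Stretches before the start of ODC1, which rose, and of SRM, which did not pass, are shown because both genes are textbook targets of MYC, which binds the E-box CACGTG. RefSeq sequences on GRCh38.p14 covered 7 of the 9 genes in 10 windows. SMOX and AZIN1, which both rose, had no sequence there and were not searched. The 250 bases before each start were searched on both strands for CACGTG, for TGACGT of the cAMP response element, for the AP-1 motif TGANTCA and for the C/EBP-ATF motif TGATGNAA. Capitals mark the matches, and all stretches are on the minus strand.
ODC1, first start, chr2:10448475-10448577: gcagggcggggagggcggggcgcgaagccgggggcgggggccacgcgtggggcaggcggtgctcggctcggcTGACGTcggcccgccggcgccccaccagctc
ODC1, second start, chr2:10448024-10448053: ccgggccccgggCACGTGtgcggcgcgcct
SRM, chr1:11060019-11060268: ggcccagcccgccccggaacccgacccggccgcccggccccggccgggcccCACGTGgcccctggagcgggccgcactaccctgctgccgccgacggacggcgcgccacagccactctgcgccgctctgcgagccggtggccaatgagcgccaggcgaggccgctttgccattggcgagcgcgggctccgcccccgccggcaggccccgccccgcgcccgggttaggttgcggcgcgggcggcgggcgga
CACGTG was found before the second ODC1 start, from position -29, and before SRM, from position -199, and in 6.35% of 35116 windows of this length in the table. TGACGT was found before the first ODC1 start, from position -178, and in 7.10% of windows. TGANTCA was found before OAZ2, from position -241, and in 6.57% of windows, and TGATGNAA in none of the 10 windows and in 3.14% of all. Positions count back from the RefSeq start, which need not be the gene start given above. The window of the first ODC1 start runs from 10448328 to 10448577, across the gene start at 10448504, and the TGACGT match lies across that gene start. The stretch shown is 103 of the 250 bases of that window. The window of the second ODC1 start lies inside the gene. A match is a description of letters, and binding was not measured.

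Genes around the 9 were read from 5 lists of 41 genes, of which 25 passed the filter on low values. Of these, 7 rose, 5 fell and 13 did not pass, with a median log2 fold change of 0.06. Of all genes tested 22.9% rose and 15.6% fell, with a median of 0.05. Counts of the single lists below stand beside these same shares. In TPM, by quantile normalization or at equal fragment totals, 4 of the list genes rose, as they did without CuB replicate 2, CuB replicate 3 or DMSO replicate 1. Among all genes, 2320 of 13295 rose in TPM, 2242 of 13273 by quantile normalization and 2010 of 13207 at equal fragment totals. Without the libraries just named, in that order, 1945 of 13319, 2343 of 13315 and 2127 of 13205 rose.

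**Figure D5:**
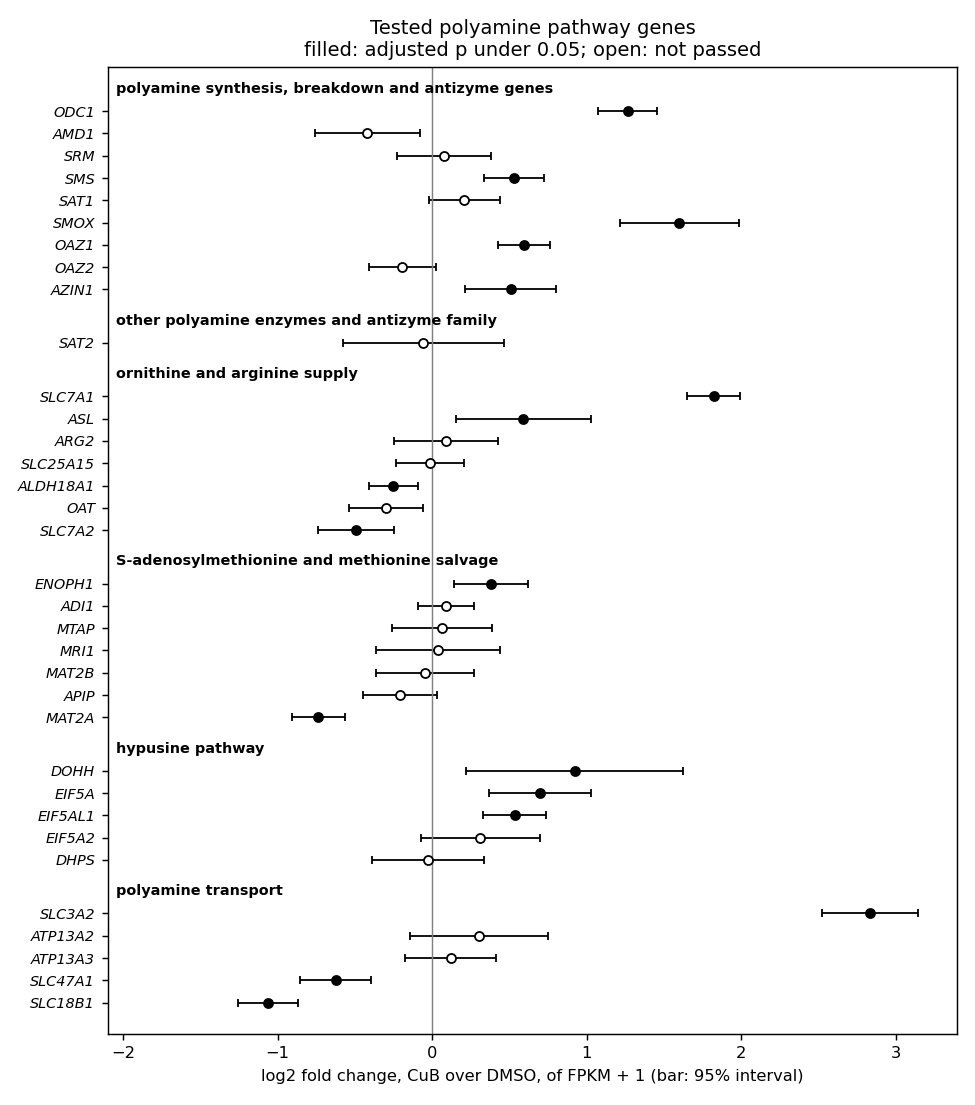
Log2 fold change of CuB over DMSO, of FPKM + 1, with its 95% interval (horizontal axis) for the 9 genes and the 25 tested genes of the 5 lists, filled where the adjusted p is under 0.05. SLC3A2, SLC7A1, SMOX and ODC1 lie farthest to the right, and SLC18B1 and MAT2A farthest to the left.

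Of the other polyamine enzymes and antizyme relatives, SAT2 was the 1 of 6 that could be tested. It was at 9.53 ± 2.73 FPKM with CuB and 9.80 ± 1.92 FPKM with DMSO (limma adjusted p = 0.857). PAOX, which oxidises acetylated polyamines, averaged 0.0795 FPKM with CuB and 0.159 FPKM with DMSO, and AZIN2, the second antizyme inhibitor, 1.01 and 0.89 FPKM.

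Of 7 tested genes of ornithine and arginine supply 2 rose and 2 fell. SLC7A1, the main cationic amino acid transporter, was at 84.3, 91.3 and 85.7 FPKM with CuB, against 23.4, 24.8 and 23.6 FPKM with DMSO, a rise of 1.82 on the log2 scale (limma adjusted p = 8.24e-06). The groups lay far apart. ASL, which releases arginine from argininosuccinate, rose by 0.59 (adjusted p = 0.0427), a call lost in 8 of 19 other settings, among them each leave-one-out fit without CuB replicate 2 or 3 or DMSO replicate 1 or 3 (adjusted p from 0.0995 to 0.132). SLC7A2, a related transporter, fell by 0.49 (adjusted p = 0.00974). ALDH18A1, which makes the precursor of proline and ornithine, fell by 0.25 (adjusted p = 0.0233), lost in 6 of 20 settings, 5 of them leave-one-out fits, all but the one without DMSO replicate 2 (adjusted p from 0.0612 to 0.107). Arginase 2, ARG2, was at 5.80 ± 1.17 FPKM with CuB and 5.34 ± 0.568 FPKM with DMSO, and shares 904 of its 2418 exon bases with VTI1B on the opposite strand.

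Of 7 tested genes of S-adenosylmethionine supply and methionine salvage 1 rose and 1 fell. MAT2A, which makes the S-adenosylmethionine that AMD1 decarboxylates, was at 53.1, 51.2 and 54.5 FPKM with CuB, against 90.9, 83.6 and 92.4 FPKM with DMSO. It fell by 0.74 on the log2 scale (SE 0.07, limma adjusted p = 0.000427), with no overlap and under all 20 other settings. It shares 558 of 4487 exon bases with GGCX on the opposite strand, which was at 4.86 to 5.48 FPKM. ENOPH1, a salvage enzyme, rose by 0.38 (adjusted p = 0.0232), a call lost in 7 of 20 settings, among them the leave-one-out fits without any 1 CuB library or DMSO replicate 1 (adjusted p from 0.0512 to 0.0612). MTAP, which recycles the methylthioadenosine left by SRM and SMS, was at 23.7 ± 3.26 FPKM with CuB and 22.7 ± 3.17 FPKM with DMSO, and shares 257 of 14617 exon bases with the antisense gene AL359922.2, at 2.29 to 3.66 FPKM.

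Spermidine also supplies the hypusine residue of the translation factor eIF5A. Of 5 genes of that pathway 3 rose. EIF5A was at 262.7, 302.3 and 329.7 FPKM with CuB, against 172.0, 221.7 and 160.1 FPKM with DMSO, and rose by 0.70 on the log2 scale (limma adjusted p = 0.00828) with no overlap. It shares 241 of 2815 exon bases with GPS2 on the opposite strand, at 0.823 to 2.62 FPKM. EIF5AL1, a near-identical copy that can share reads with EIF5A, rose by 0.54 (adjusted p = 0.00334). DOHH, the hydroxylase of the second step, rose by 0.92 (adjusted p = 0.0459), but its groups overlapped through DMSO replicate 2, and the call was lost in 9 of 20 settings, among them the fits without CuB replicate 2 or 3 or DMSO replicate 1 or 3 (adjusted p from 0.125 to 0.135). DHPS, the synthase of the first step, was at 1.56 ± 0.327 FPKM with CuB and 1.61 ± 0.374 FPKM with DMSO, values made uncertain by 1157 of its 3006 exon bases shared with AC010422.8 on the same strand.

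Of 5 tested transport genes 1 rose and 2 fell. SLC3A2, the heavy chain of several amino acid exchangers and a reported part of polyamine export, was at 152.9, 176.3 and 180.4 FPKM with CuB, against 20.7, 27.7 and 20.8 FPKM with DMSO. It rose by 2.84 on the log2 scale (limma adjusted p = 1.67e-05), rank 52 of 13273 from the highest. SLC18B1, a vesicular polyamine transporter, fell by 1.06 (adjusted p = 0.000153), to 6.33 ± 0.382 FPKM with CuB, against 14.3 ± 0.707 FPKM with DMSO. SLC47A1, an organic cation exporter, fell by 0.62 (adjusted p = 0.0029). The lysosomal polyamine exporter ATP13A2 was at 12.7, 14.9 and 17.2 FPKM with CuB and at 11.3, 15.7 and 9.40 FPKM with DMSO, with overlap (limma adjusted p = 0.248).

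Among the genes whose values over the 6 libraries were most like those of SMOX were KLHL21 and TIMM44. Pearson's r with SMOX in log2(FPKM + 1) was 0.9997 for KLHL21 and 0.9996 for TIMM44. With only 2 groups such values can follow the difference between them, and 270 genes had an r above 0.99. They can also follow GC content, with which deviations correlated at -0.53 in CuB replicate 1 and 0.71 in DMSO replicate 2. SMOX was lowest among the CuB libraries in the former and highest among the DMSO libraries in the latter. The part of each was not tested.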

How the data were processed

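Polyadenylated RNA of 3 CuB and 3 DMSO samples was sequenced after library preparation with a TruSeq kit, per the labels' protocols. The table deposited by the authors holds FPKM for 58735 genes on GRCh38, per the submitters' processing notes. Aligner and counting tool: not given in the sources used here. Gene coordinates were those of GENCODE 29 for all 58735 genes. Whole fragments were recovered from FPKM and gene length, with 100% of values above 0 whole within 0.01 of a fragment. Replicates differed by more than sampling noise (chi-square per gene from 2.93 to 27.4), and 0 columns of sample values were unused.

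The 13273 genes whose mean over 6 libraries reached 1 FPKM entered a fit of log2(FPKM + 1) in R 4.3.3 with limma 3.58.1 (intensity trend, 2 groups, 4 residual degrees of freedom). P-values were adjusted by Benjamini-Hochberg over all tested genes, with a threshold of 0.05, and 5118 genes (38.6%) passed. Folds on this scale understate changes of low genes; folds written as "-fold" are ratios of mean FPKM. Intervals are 95% intervals from limma. The step was tested on simulated data. The other 20 settings changed the pseudocount (0.1, 0.5), the filter (none, or 5 FPKM) or the scaling (TPM, median-of-ratios factors, quantile normalization, equal fragment totals), or used limma without the trend or with robust hyperparameters, voom on recovered fragments, or a GC correction (lowess, span 0.3), the replicate block, both together, or left out 1 library. Named genes were the 9, the passing genes of each list, at most 4 by fold change, or the 2 highest where fewer than 2 passed, and the 3 most like the gene with the largest change, of which 1 is not reported here; PAOX, AZIN2, ARG2, MTAP, DHPS, ATP13A2 and single marker genes were named after their values were seen. The 9 genes and the lists were chosen with earlier results of these data known. Plots were drawn with matplotlib 3.10.9.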

Additional observations from a re-analysis of the deposited data

How the results depend on the processing

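ODC1, SMS, SMOX and OAZ1 kept direction and call in all 20 other settings, though quantile normalization lowered SMS to 0.30 and OAZ1 to 0.36 on the log2 scale. AZIN1 lost its call in 3: at 0.27 by quantile normalization, at 0.35 at equal fragment totals and at 0.52 without CuB replicate 2. Its leave-one-out fits ran from 0.41 to 0.59. AMD1 passed as lower in 9: at -0.42 with a minimum of 5 FPKM, -0.52 in TPM, -0.60 by quantile normalization, -0.58 at equal fragment totals, -0.44 with voom, -0.47 with the GC correction, -0.47 with that correction and the replicate block, and -0.53 without CuB replicate 1 and without DMSO replicate 2. The leave-one-out fits of AMD1 ran from -0.53 to -0.33, and 4 of the 6 did not pass (adjusted p from 0.143 to 0.155). SAT1 passed at 0.16 with the GC correction. OAZ2 passed as lower at -0.32 by quantile normalization, -0.34 at equal fragment totals and -0.24 with the GC correction. SRM reversed at -0.025 (TPM), -0.15 (quantile) and -0.087 (equal totals), and ran from -0.037 (without DMSO replicate 3) to 0.19 over the leave-one-out fits; SAT2 ran from -0.19 to 0.18 over them, and reversed at 0.18 without CuB replicate 1 and 0.08 without DMSO replicate 2. Equal fragment totals shifted the median of all tested genes by -0.14, TPM by -0.088, quantile normalization by -0.084 and the GC correction by -0.052. Values in these settings are relative to those shifts. The minimum of 5 FPKM moved the median by 0.072 through the set of genes tested alone. Of the 9 genes, 4 to 6 rose in every setting; 1 fell with a minimum of 5 FPKM, in TPM, with voom and with the GC correction plus block, 2 by quantile normalization, with equal totals and with the GC correction, and 0 to 1 over the leave-one-out fits. The list genes that rose numbered 4 in TPM, by quantile normalization or at equal totals and 4 to 8 over the leave-one-out fits. Both counts are to be read beside those of all genes in the same settings, which also moved and are given next. Over all genes 3250 of 7713 changed (2265 higher, 985 lower) with a minimum of 5 FPKM, and 2010 of 13207 were higher and 3136 lower with equal totals. In TPM 2320 of 13295 were higher and 2673 lower. By quantile normalization 2242 of 13273 were higher and 2509 lower, and with voom 3213 and 2165 of 13273. With the GC correction 7608 of 13273 changed (4016 higher, 3592 lower), and 7191 (3787 higher, 3404 lower) with the block added. Leaving out 1 library gave 3264 to 5725 changed genes, 1945 to 3462 higher and 1316 to 2263 lower. Of the changed genes 59.5% were higher as deposited, 46.5% in TPM, 47.2% by quantile normalization, 52.8% with the GC correction, 69.7% with a minimum of 5 FPKM and 39.1% with equal totals. These settings differ in scaling, in the libraries used or in the genes tested, and the part of each in these counts was not tested.

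Same-numbered libraries showed no sign of pairing: their deviations from the group mean correlated at 0.27, 0.12 and -0.36. Those deviations also followed GC content, so these values cannot exclude a pairing. The replicate block gave 4443 changed genes, left the calls of the 9 genes as they were (AMD1 adjusted p = 0.0658) and ended the call of ALDH18A1 (0.0917).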
